A study of Mus musculus with 30 samples.

Results

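Among 45281 probes on a mouse expression array, 71 (0.157%) were detected in ribosome-bound RNA from noradrenergic cells and on no array of the matching RNA from serotonergic cells. A probe belonged to this set when its detection p, the chance of such a signal on negative control probes, was under 0.01 on at least 6 of 8 arrays of the Slc6a2 line. In addition, it had to stay at 0.01 or above on all 7 arrays of the Slc6a4 line. The arrays therefore chose the probes themselves. Their levels in that RNA, and the difference between the lines there, are described below without a test, and the calls that set this RNA against total RNA are a description too. Treatment and sex labels and total RNA were not used in the choice, and their contrasts were tested. Detection on at least 6 of 8 arrays still kept out any probe silent on all arrays of either treatment or either sex. Tests of LPS and sex in that RNA thus cannot show such a change.

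The RNA came from hindbrains of adult mice aged 6 to 12 weeks, measured on 30 Illumina bead arrays. The mice carried a bacterial artificial chromosome transgene encoding EGFP fused to the ribosomal protein Rpl10a, placed under the regulatory sequence of Slc6a2 (transgene Tg(Slc6a2-EGFP/Rpl10a)JD1538Jdd) or of Slc6a4 (transgene Tg(Slc6a4-EGFP/Rpl10a)JD60Jdd), both on a B6;FVB background. Each driver was studied in 1 transgenic line. All mice were kept at 30 °C with an implanted temperature transponder, and were injected with 100 ug per kg of lipopolysaccharide (LPS), a fever-inducing part of the bacterial cell wall, or with its vehicle, sterile PBS. Translating ribosome affinity purification (TRAP) gave 8 arrays for Slc6a2 mice and 7 for Slc6a4 mice. Total hindbrain RNA, taken from the lysate before the purification (Pre-IP) or after it (Unbound), gave 7 arrays for Slc6a2 mice and 8 for Slc6a4 mice. The design text names 16 mice, 4 males and 4 females per line, so most groups of 1 line, RNA kind, sex and treatment held 2 arrays. The exceptions, with 1 array, were PBS males in Slc6a4 TRAP and LPS males in Slc6a2 total RNA. RNA was amplified in 2 batches that cut across line, sex and treatment in TRAP. All Pre-IP arrays were in batch 1 and all Unbound arrays in batch 2, so those cannot be told apart. The p-values measure the spread between these arrays.

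Slc6a2 encodes the noradrenaline transporter, which returns released noradrenaline to the neurons that make it. In the hindbrain such neurons form small groups, of which the locus coeruleus is the best known, and they project widely through the brain and spinal cord. Slc6a4 encodes the serotonin transporter, which marks the serotonergic neurons of the raphe nuclei. TRAP precipitates tagged ribosomes from a lysate, and thereby enriches messenger RNA under translation in the tagged cells over that of the whole tissue. A gene that few cells express can be hard to detect in whole-tissue RNA and easy to detect after such a purification.

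The deposited table does not pair probes with genes, and no probe identifier occurred in the gene tables used here. The set is therefore described by probe identifier, and no sequence or gene function can be given for its members. Whether some members report the same transcript cannot be told, so counts of probes are no counts of transcripts. The markers of noradrenergic, serotonergic and other cells could not be looked up either, so the identity of the purified cells rests on the labels.

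The choice was a narrow one. Of 15074 probes detected on at least 6 Slc6a2 TRAP arrays, 13237 (87.8%) were detected on all 7 Slc6a4 TRAP arrays as well, and 71 (0.471%) on none. The mirror-image rule, detection on at least 6 of 7 Slc6a4 TRAP arrays and on no Slc6a2 TRAP array, gave 57 probes. Within the set of 71, 28 probes were detected on all 8 Slc6a2 TRAP arrays, 17 on 7 and 26 on 6. Each Slc6a2 TRAP array detected between 54 and 68 of the 71. The fewest were on the array of the PBS male in batch 2, which also detected the fewest probes of any array, 15432. The other TRAP arrays of both lines detected 17012 to 19424 probes, and total RNA arrays 20395 to 23122. With that array left out and the rule set to at least 5 of 7 arrays, 101 probes qualified, and these held all 71 by construction.

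Absence from Slc6a4 TRAP was a matter of degree. In 44 of the 71 probes the lowest detection p over the 7 Slc6a4 TRAP arrays was under 0.05, and in 15 it was 0.1 or above. ILMN_2648867 lay just inside the rule. It was detected on 6 of 8 Slc6a2 TRAP arrays with a median detection p of 0.0069, and its lowest detection p in Slc6a4 TRAP was 0.012. Its normalised log2 intensity ran from 4.90 through a median of 6.24 to 7.23 in Slc6a2 TRAP and from 5.03 through 5.33 to 5.74 in Slc6a4 TRAP, so that the lines overlapped. Just outside the rule lay ILMN_2491213, which was detected on 8 of 8 Slc6a2 TRAP arrays and on 1 of 7 Slc6a4 TRAP arrays. It had a lowest, median and highest log2 level of 11.04, 11.11 and 11.21 in Slc6a2 TRAP and of 4.84, 5.46 and 6.59 in Slc6a4 TRAP. The lines were thus far apart for this excluded probe and close for the included one.

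Over the 71 probes, the mean log2 level in Slc6a2 TRAP ran from 6.19 to 11.38 with a median of 7.18. In Slc6a4 TRAP the same probes had means of 4.49 to 5.67, with a median of 4.95. Brightness depends on the probe as well as on its transcript, so the order of probes by level is no order of abundance. Since no Slc6a4 TRAP array detected a member, the fold between lines is a lower bound. On each Slc6a4 array the probe's own value was raised to that of the dimmest detected probe where it was lower, and the difference of the mean log2 values between the lines gave the fold. This bound ranged from 1.12-fold to 41.0-fold with a median of 2.22-fold. It exceeded 10-fold in 5 probes and 4-fold in 16, and was under 2-fold in 32. All 8 Slc6a2 TRAP arrays lay above all 7 Slc6a4 TRAP arrays in 37 of the 71, where 1.6% of all 21863 probes tested did. The rule used that contrast, and nothing is read from the count.

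The spread within Slc6a2 TRAP was wide for these probes. The SD of the log2 level over the 8 arrays ranged from 0.23 to 1.59 among members with a median of 0.76, against a median of 0.51 over all 15074 probes detected on at least 6 of these arrays. The members were also dimmer, at a median of 7.18 against 8.68 over the same 15074.

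ILMN_1222014 was the brightest member. It had a log2 level of 10.91 at the lowest, 11.44 at the median and 11.60 at the highest of the 8 Slc6a2 TRAP arrays. On Slc6a4 TRAP arrays it lay at 4.49, 5.40 and 5.71, and its lowest detection p there was 0.013. The lines did not come near each other, and the bound on the difference was at least 41.0-fold. The probe was also detected on all 15 total RNA arrays, at 5.82, 6.58 and 6.98 in the Slc6a2 line and at 5.70, 6.32 and 6.96 in the Slc6a4 line. In the Slc6a4 line the probe was thus detected in total RNA and not in RNA bound to the tagged ribosomes. The dimmest detected probe there lay at 5.21 to 5.52 on total RNA arrays and at 5.81 to 6.34 on TRAP arrays. Detection thus began at a lower level in total RNA, and its part in this contrast was not tested.

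The next brightest was ILMN_2669234, at 10.49, 11.11 and 11.48 in Slc6a2 TRAP and 4.41, 4.67 and 4.99 in Slc6a4 TRAP. It was detected on none of the 15 total RNA arrays, where it lay between 4.46 and 5.17. All 8 Slc6a2 TRAP arrays therefore stood clear of the other 22 arrays. Its level was at least 32.7-fold higher than in Slc6a4 TRAP. It was at least 50.9-fold higher than in total RNA of its own line, with Pre-IP and Unbound arrays pooled. ILMN_1247040 had a similar pattern, with 8.60, 9.59 and 10.48 in Slc6a2 TRAP, a bound of 11.8-fold over Slc6a4 TRAP, and detection on 1 of 15 total RNA arrays.

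Most of the set could be seen in total hindbrain RNA. Detection began at lower levels in it, with the dimmest detected probe at 5.21 to 5.63 log2 units against 5.81 to 6.71 on TRAP arrays. Of the 71 probes, 54 were detected on at least 1 of 15 total RNA arrays, 8 on all 15, and 17 (23.9%) on none. The median was 7 arrays. The absence that defines the set thus refers to Slc6a4 TRAP and not to the whole tissue, whose RNA includes that of noradrenergic cells. Unbound arrays hold the RNA left after the purification, which may lack part of the RNA of the tagged cells. This was not tested. In bulk RNA, fewer cells that express a gene and less of its RNA per cell cannot be told apart.

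The share missing from total RNA was nevertheless high beside other probes of Slc6a2 TRAP. Among all 15074 probes detected on at least 6 Slc6a2 TRAP arrays, 35 (0.232%) were on no total RNA array, and 17 of these 35 (48.6%) belonged to the set. Probes detected on exactly 1 Slc6a4 TRAP array numbered 76, of which 1.32% were missing from total RNA and 36.8% were on all 15 arrays. Among probes on all 7 Slc6a4 TRAP arrays those shares were 0.068% and 96.0%, and in the set of 71 they were 23.9% and 11.3%. The mirror-image set of 57 probes had 14 (24.6%) on no total RNA array and 7 on all 15. These shares are descriptions. The median of the mean log2 level in Slc6a2 TRAP was 7.18 in the set, 6.67 among the 76 probes on 1 Slc6a4 TRAP array and 8.96 among those on all 7, and the part of brightness in these shares was not tested.

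Presence in total RNA was also counted by line. Of the 54 probes seen there, 45 were detected in both lines, 7 in the Slc6a2 line alone and 2 in the Slc6a4 line alone, and none of those 9 was on more than 5 arrays. All 7 total RNA arrays of the Slc6a2 line detected 14 members, and all 8 of the Slc6a4 line also detected 14. There were 19 members without detection in total RNA of the Slc6a2 line and 24 in that of the Slc6a4 line. No test of presence between the lines was run. A Pre-IP array detected 34 to 40 members in the Slc6a2 line and 33 to 42 in the Slc6a4 line. An Unbound array detected 26 to 35 and 25 to 33. Unbound arrays thus tended to hold fewer members than Pre-IP arrays in either line, with some overlap in both. They also tended to detect fewer of all probes, 20395 to 22652 against 21279 to 23122, and the amplification batch differed along with them.

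Levels in total RNA were compared between the lines, a contrast the rule did not use. The letters in the sample titles, whose meaning the labels do not give, nearly follow the line here. Among total RNA arrays letter D holds the Slc6a2 line alone, E the Slc6a4 line alone, and F both. Line and letter can thus hardly be told apart in these levels or in the counts by line above. Of the 71 probes, 47 were detected on at least 3 total RNA arrays and could enter this comparison. None of the 47 differed by limma after adjustment over all 24914 probes tested, of which 0.0201% (5 probes) did. At an unadjusted p under 0.05 there were 4 of the 47 (8.51%), against 2210 (8.87%) of all probes. Differences ran from -0.41 to 0.80 with a median of 0.08 and a median SE of 0.22 log2 units. A missed threshold is no sign that both lines had equal levels.

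ILMN_2773224 had the smallest p among probes higher in the Slc6a2 line. Its lowest, median and highest log2 levels were 4.95, 6.00 and 7.66 in Slc6a2 total RNA and 4.88, 5.21 and 5.74 in Slc6a4 total RNA, so the lines overlapped. It was detected on 4 of 7 and 3 of 8 arrays. The difference was 0.80 log2 units with an SE of 0.33 and an adjusted p of 0.51 in limma, and was 0.14 within batch 1 and 1.25 within batch 2.

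ILMN_2506003 went the other way. It was detected on none of 7 total RNA arrays of the Slc6a2 line, at 4.81, 4.999 and 5.17, and on 5 of 8 of the Slc6a4 line, at 5.22, 5.38 and 5.60. All arrays of the Slc6a2 line were below all of the Slc6a4 line, which held for 1 of the 47 members and for 0.0803% of all 24914 probes. The difference, Slc6a2 minus Slc6a4, was -0.40 log2 units with an SE of 0.16 and an adjusted p of 0.50 in limma. In TRAP the same probe was detected on all 8 Slc6a2 arrays, at 5.98, 6.38 and 7.01. It lay at 5.32, 5.54 and 5.98 on Slc6a4 TRAP arrays, without detection. Those levels were not below its levels in Slc6a4 total RNA, where detection began lower.

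TRAP was then set against total RNA within each line. With 16 mice in the design, the 2 kinds of RNA with the same labels otherwise may come from 1 mouse, which is not stated. The fit treats them as separate samples, so its SEs and p-values hold only as far as that is so. In the Slc6a2 line 57 of the 71 probes were higher in TRAP by limma after adjustment and 3 were lower, where 19.6% and 23.7% of all 26312 probes tested were. The median difference was 1.94 log2 units (range -1.55 to 6.41), against -0.08 over all probes. In the Slc6a4 line 0 of the 71 were higher and 23 were lower, where 20.6% and 21.2% of all probes were, with a median of -0.30 (range -3.05 to 0.51). At an unadjusted p under 0.05 in limma, 27 of the 71 (38.0%) differed in the Slc6a4 line in either direction, against 49.7% of all probes. The rule required high TRAP values in the first line and low ones in the second, so these counts describe the set and support nothing further.

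The members can be grouped by their presence in total RNA. That level is itself a term of the difference, so the signs below follow in large part from the grouping and are a description. The 17 probes on no total RNA array were all among the 57. The 8 probes on all 15 total RNA arrays had Slc6a2 differences of -1.55 to 4.83 with a median of -0.05, and 1 of the 8, ILMN_1222014, was called higher. In the Slc6a4 line all 8 were called lower, by differences of -3.05 to -0.81. For 11 probes of the set TRAP was higher in the Slc6a2 line and lower in the Slc6a4 line, and for 3 it was lower in both. Where a probe was on no total RNA array of the Slc6a2 line (19 probes), TRAP exceeded total RNA by at least 1.98-fold to 50.9-fold, with a median bound of 2.97-fold.

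Membership did not require a higher level in TRAP than in the tissue, as the 3 probes lower in both lines show. ILMN_1236474 had log2 levels of 4.69, 6.32 and 7.49 in Slc6a2 TRAP, where 6 of 8 arrays detected it. It lay at 7.09, 8.08 and 8.35 in total RNA of that line and at 7.30, 7.99 and 8.81 in total RNA of the Slc6a4 line. TRAP overlapped with total RNA in the Slc6a2 line and was lower on average by a difference of -1.55 (SE 0.36). In the Slc6a4 line the difference was -3.05. ILMN_2943165 likewise had differences of -1.16 and -2.11.

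Whether a probe chosen in this way also differed between the lines on other TRAP arrays was examined by choosing on 1 batch and measuring in the other. In this check, a probe had to be detected on at least 3 of 4 Slc6a2 arrays of the choosing batch and on none of its Slc6a4 arrays. Batch 1 chose 426 probes, of which 56 (13.1%) met the same rule in batch 2, where 215 of all 45281 (0.475%) did. Batch 2 chose 215 probes, of which the same 56 (26.0%) met it in batch 1, where 426 of all (0.941%) did. These 56 lie within the set of 71 by construction. Most probes chosen on 1 batch thus did not meet the rule in the other. All 45281 probes include many detected in both lines or hardly at all, so their shares are no like-for-like baseline. In either batch most Slc6a2 TRAP arrays bore a title letter that no Slc6a4 TRAP array bore. The other batch therefore does not separate line from letter.

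The same limits apply to levels, in which the chosen probes leaned towards the Slc6a2 line. For the 426 probes chosen on batch 1, 328 (77.0%) were higher in Slc6a2 TRAP than in Slc6a4 TRAP of batch 2, against 54.5% of all probes, and the median difference was 0.42 against 0.03 log2 units. By limma on batch 2 alone, without a filter on dim probes, 50 of the 426 (11.7%) were called higher, where 0.859% of all probes were. For the 215 chosen on batch 2, 190 (88.4%) were higher in batch 1, against 51.1% of all, with a median of 0.92 against 0.01. Of these 215, 12 (5.58%) were called higher, where 0.174% of all probes were. With the filter, which keeps probes detected on at least 3 arrays, 280 and 99 of the chosen probes could be tested. Of these, 60 and 20 were called higher, against 2.91% and 0.731% of all probes. Such probes passed mostly through the group in which they were high, so those counts are given for completeness.

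A further choice, added after seeing the data, was made on the letters in the sample titles, whose meaning the labels do not give. Among TRAP arrays letter A holds the Slc6a2 line alone, B the Slc6a4 line alone, and C both. Letters A and B, with at least 5 of 6 Slc6a2 arrays and none of 5 Slc6a4 arrays, chose 86 probes. On the 2 and 2 arrays of letter C, 44 of the 86 (51.2%) were detected on both Slc6a2 arrays and on no Slc6a4 array, against 368 (0.813%) of all probes. Of the 86, 82 (95.3%) were higher in the Slc6a2 line, against 50.8% of all, with a median difference of 1.96 log2 units. With 1 residual degree of freedom, limma without the filter called 8 of them (9.30%) higher, where 0.119% of all probes were. With the filter it called 2 of the 12 that could be tested, where 0.284% of all were. That filter needs detection on at least 3 arrays, more than the 2 Slc6a2 arrays of letter C. A chosen probe could therefore enter only if a Slc6a4 array detected it, and the 44 were left out. Nothing is read from the count of 2. All probes are no like-for-like baseline for the shares here either.

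Also added after seeing the data, TRAP of the probes chosen by batch was set against total RNA of the Slc6a2 line in the other batch. That RNA was Unbound in batch 2 and Pre-IP in batch 1, so the 2 directions do not repeat each other. These fits too treat TRAP and total RNA as separate samples, though they may come from 1 mouse. All probes are again no like-for-like baseline. Of the 426 probes chosen on batch 1, 62 (14.6%) were called higher in TRAP than in total RNA of batch 2, where 5.44% of all probes were, and 28 were called lower. Positive differences made up 57.7%, against 57.3% of all. Of the 215 chosen on batch 2, 27 (12.6%) were called higher in batch 1, where 2.25% of all were, and 3 were called lower. Here 73.0% were positive, against 57.4% of all. These calls are from limma on 1 batch without a filter on dim probes. The share of all probes called lower was not counted, so nothing is read from the lower calls. With the filter, 344 and 158 of the chosen probes could be tested. Of these, 74 and 38 were called higher, where 14.5% and 7.06% of all probes were, and 46 and 4 were called lower.

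LPS was tested in Slc6a2 TRAP with 4 LPS and 4 PBS arrays. None of the 71 probes changed by limma after adjustment over all 21863 probes tested, of which 0.0732% (16 probes) did. At an unadjusted p under 0.05 there were 4 of the 71 (5.63%), against 2262 (10.3%) of all probes. The differences, LPS minus PBS, had a median of 0.03 against 0.02 over all probes, and ran from -1.34 to 2.29 with SEs of 0.30 to 0.77. Of the 71, 41 were positive and 30 negative, and 35 had the same sign in both batches. A difference beyond 1 log2 unit was seen in 6 members, 5 higher and 1 lower after LPS, and in 9.73% of all probes. With SEs of this size, the missed threshold does not show that the probes were unaffected. The rule also kept out probes undetected on all LPS or all PBS arrays. All 21863 probes needed detection on only 3 TRAP arrays, so the 2 shares are not like with like.

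ILMN_1249485 had the smallest p for LPS. With LPS its log2 levels were 8.58 and 6.69 in females and 8.35 and 8.80 in males. With PBS they were 7.01 and 4.89 in females and 6.73 and 4.64 in males, and neither 4.89 nor 4.64 was a detected signal. The 2 groups overlapped through the LPS female at 6.69, which lay below both detected PBS arrays. The difference was 2.29 log2 units (SE 0.63, adjusted p = 0.27 in limma), with 1.71 in batch 1 and 2.86 in batch 2. Over the other ways of processing, the adjusted p ran from 0.065 to 0.76. Without the PBS male of batch 2, the array that stands apart, the difference was 1.58 with an adjusted p of 0.31. The probe was detected on no Slc6a4 TRAP array and on no total RNA array, so its response could be examined nowhere else.

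ILMN_1216381 had the smallest p among probes lower after LPS. Its log2 levels with LPS were 5.99 and 5.72 in females and 7.06 and 4.80 in males, of which 5.72 and 4.80 were not detected. With PBS they were 6.53 and 7.22 in females and 8.33 and 6.85 in males, all detected. The groups overlapped through the LPS male at 7.06. The difference was -1.34 (SE 0.56, adjusted p = 0.44 in limma), with -0.65 and -2.04 in the batches and an adjusted p of 0.20 to 0.83 over the other ways of processing. Leaving out 1 array moved it to between -0.69, without the LPS male of batch 2, and -1.99, without the LPS male of batch 1.

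The brightest members moved little. LPS minus PBS was 0.10 (SE 0.33) for ILMN_1222014 and 0.03 (SE 0.30) for ILMN_2669234. All LPS arrays lay above all PBS arrays for 1 member, as they did for 1.66% of all probes tested, and below them for none, against 1.20% of all. That member, ILMN_1244673, was picked out after its values were seen. Its levels were 7.27, 7.93, 7.30 and 7.01 with LPS and 6.80, 6.93, 6.27 and 4.51 with PBS. Neither 6.27 nor 4.51 was a detected signal. The gap between the groups was small beside the spread of the PBS arrays, and the difference of 1.25 (SE 0.47) had an adjusted p of 0.39 in limma. In total RNA, where all 15 arrays detected it, its LPS difference was -0.04 (SE 0.20).

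In total RNA the response to LPS was tested over both lines, with 7 LPS and 8 PBS arrays. Of the 47 members that could be tested, limma called 0 after adjustment, where 0.0763% (19) of 24914 probes were called, and 2 of the 47 (4.26%) had an unadjusted p under 0.05, against 1815 (7.29%) of all. The differences ran from -0.73 to 0.70 with a median SE of 0.22, and 22 of the 47 had the same sign as in Slc6a2 TRAP. ILMN_3084954 lay at 5.80, 6.62 and 7.45 with LPS and at 4.96, 5.85 and 6.46 with PBS. The groups overlapped, and the difference of 0.70 (SE 0.27) had an adjusted p of 0.58 in limma, while in Slc6a2 TRAP it was 0.16. Without the PBS male of the Slc6a4 line in batch 2 it was 0.46. ILMN_2731774 was detected on 2 of 7 LPS arrays and 6 of 8 PBS arrays. Its levels of 4.62, 5.12 and 6.02 with LPS overlapped with those of 4.98, 5.85 and 6.95 with PBS. The difference of -0.73 (SE 0.24) had an adjusted p of 0.45, and in Slc6a2 TRAP it was -0.22.

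Within the Slc6a2 line alone, limma called 0 of the 47 in total RNA after LPS, where 0.00401% of all probes were called, and 2 (4.26%) had an unadjusted p under 0.05, against 7.71% of all. Within the Slc6a4 line it called 0, where 0% of all probes were called, and 1 (2.13%) had an unadjusted p under 0.05, against 4.13% of all.

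Sex was tested in Slc6a2 TRAP with 4 female and 4 male arrays. None of the 71 differed by limma after adjustment, where 0.00457% (1 of 21863) of all probes did. At an unadjusted p under 0.05 there were 8 of the 71 (11.3%), against 2268 (10.4%) of all. Differences, female minus male, ran from -1.90 to 1.53 with a median of 0.16 against 0.03 over all probes, and 39 of 71 had the same sign in both batches. No member had all female arrays on 1 side of all male arrays, which 1.73% of all probes did with females higher and 1.44% with females lower. The rule likewise kept out probes undetected on all arrays of either sex, which the filter on all probes did not.

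ILMN_2748205 had log2 levels of 7.97, 7.32, 7.49 and 8.77 in females and of 5.69, 6.78, 7.86 and 6.08 in males. Neither 5.69 nor 6.08 was a detected signal. The sexes overlapped through 1 male array. The difference was 1.28 (SE 0.47, adjusted p = 0.38 in limma), and 0.82 without the PBS male of batch 2. ILMN_2698682, which was also detected on all 15 total RNA arrays, had levels of 7.94, 6.62, 4.82 and 7.71 in females and of 8.43, 8.40, 7.68 and 8.07 in males. Its sexes overlapped as well, with a difference of -1.37 (SE 0.49, adjusted p = 0.37 in limma). The female array at 4.82 was not a detected signal.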

How the data were processed

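The authors deposited 1 table that gives each probe's intensity on every array beside its detection p-value, not normalized between arrays as judged from its values (8.2 to 60960). The submitters' processing notes name lumi; the scanner software is not given in the sources used here. Intensities were background-corrected with normexp from the detection p-value, quantile normalized over 30 arrays (offset 16) and taken to log2 (neqc, limma 3.58.1, R 4.3.3). Probes with a detection p under 0.01 on at least 3 arrays of a fit were tested: 21863 in TRAP, 24914 in total RNA and 26312 over all arrays. Each of these 3 fits had 1 mean per line, RNA kind, sex and treatment. The amplification batch was a covariate, nested within RNA kind in the fit of all arrays. The replicate number is this batch in the labels, and no fit paired arrays by mouse. Residual degrees of freedom were 6, 6 and 12. Fits on 1 batch alone were additive, with line or RNA kind plus sex and treatment. The fit on letter C had line and batch. They left 4 (batch 2), 3 (batch 1) and 1 (letter C) residual degrees of freedom. Moderated p-values from lmFit and eBayes (trend) were adjusted by Benjamini-Hochberg over all probes tested, with 0.05 as the threshold. The number of arrays limits the precision. The fits were tested on simulated data. The probes and lists were chosen with earlier results of these data known. Gene lists could not be tested, since probes have no gene names here. The rule named the 2 brightest members, the 2 on most total RNA arrays, the smallest p per direction in each test (the 2 largest called differences per direction for TRAP against total RNA) and 1 probe on either side of the rule. Alternatives were other normalizations, filters, detection thresholds and models, and leaving out each array.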

Additional observations from a re-analysis of the deposited data

Results flagged for a closer look

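For 5 of the 71 groups of arrays of named probes that were examined, 1 array lay far from the others (a gap above Dixon's 95% critical value, which chance passes in about 5% of groups). ILMN_1216381 stood at 4.85 log2 units in Slc6a2 total RNA of the PBS male in batch 2, where the other 6 arrays lay from 6.57 to 7.25. ILMN_2731774 stood at 5.58 in Slc6a4 TRAP of the PBS female in batch 2 (others 4.50 to 4.87), and was not detected there. ILMN_1247040 stood at 5.74 in Slc6a4 TRAP of the LPS female in batch 1 (others 4.45 to 4.89), without detection. The same probe stood at 5.39 in Slc6a2 total RNA of the LPS female in batch 2 (others 4.43 to 4.59), the 1 total RNA array that detected it. ILMN_2491213, the probe just outside the rule, stood at 5.09 in Slc6a4 total RNA of the LPS female in batch 2 (others 6.43 to 7.60).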

How the results depend on the processing

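The size of the set depended on the threshold. It was 27 when no Slc6a4 TRAP array might be under 0.05, 28 when all 8 Slc6a2 arrays had to detect the probe, 61 with 0.05 in both lines (27 shared with the 71) and 68 with 0.001 (34 shared). Leaving out 1 array, which loosens the rule, gave 76 to 102 probes. With TRAP and total RNA normalized separately, 8 members in place of 3 were lower in Slc6a2 TRAP than in total RNA; leaving out 1 array gave 2 to 3 lower and 56 to 59 higher. Of the probes chosen on batch 2, 12 in place of 20 were called in batch 1 without the filter on dim probes. Of those chosen on letters A and B, 0 were called on letter C with median centring and 8 without the filter, in place of 2. With the filter, chosen probes detected on no Slc6a4 array of letter C could not be tested, so the 8 and the 2 come from unlike sets. The counts of 0 for LPS in Slc6a2 TRAP, sex, line in total RNA and LPS in total RNA stayed 0 under every alternative run, with 0 to 0 over left-out arrays. Without the replicate block (the batch term) these counts were 0, while 56 members in place of 57 were higher and 3 were lower in Slc6a2 TRAP than in total RNA. All 172 alternative values of named probes kept their direction and their side of the threshold. They cover the 8 probes named for the smallest p in LPS, sex or line, none of which was called. The probes named for TRAP against total RNA are not among them. Signal near background limits the set: 32 of 71 had a bound under 2-fold, and 24 were too rarely detected to be tested in total RNA.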
